A study of Mus musculus with 15 samples.

Results

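The AMH and BMP signalling genes examined here were Amh, Amhr2, Bmpr1a, Bmpr1b, Bmpr2, Smad1, Smad5, Id1, Id2 and Id3. They were taken as every probe that the authors' table of present probes names after one of these 10 genes, which gave 13 of its 20855 probes. Of these 13 member probes, 11 were valid, that is, at each stage no more than 1 of the 5 arrays failed to show them well above background, and all 10 genes kept a valid probe. The other 2 were the second probes of Smad1 and Smad5. In all, 17324 probes were valid. Bmpr1b, Smad1 and Smad5 each had 2 probes, called a and b here, which share their RNA and are not replicates.

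The cells were cumulus cells of B6CBAF1/J mice, which surround the oocyte, and each of 3 stages had 5 arrays. NC1 cells surrounded prophase I oocytes of 3-week-old juveniles that could resume meiosis and are labelled developmentally incompetent, C1 cells surrounded competent prophase I oocytes of 8-week-old adults, both in unexpanded complexes, and C2 cells came from expanded complexes that 8-week-old adults had ovulated into the oviduct after PMSG and hCG, with oocytes in metaphase II. Each array held cells pooled from several mice. NC1 and C1 complexes were stripped by pipetting and C2 complexes with hyaluronidase, so age cannot be told apart from stage between NC1 and C1, nor hormones, site and enzyme between C1 and C2.

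AMH is a hormone of the TGF-beta family that granulosa and cumulus cells of growing follicles secrete, and the oocyte is known to sustain its expression in the cells nearest to it. It binds its own type II receptor, AMHR2, which shares the type I receptors (BMPR1A and BMPR1B among them) and the SMAD1, SMAD5 and SMAD9 transducers with the bone morphogenetic proteins. Those proteins act through BMPR2 or an activin type II receptor. The ID genes, which encode inhibitors of basic helix-loop-helix transcription factors, are the best known targets of these SMADs.

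RefSeq start-site windows (GRCm38.p6) were given for 8 of the 10 genes. Amh and Id1 had none. The 250 bases before the start were searched on both strands for 6 motifs: AAGGTCA, a half-site for nuclear receptors of the NR5A kind, AGATAA for GATA factors, GGCGCC, which BMP-activated SMADs bind, the E-boxes CACGTG and CAGCTG, and TGACGTCA, the cAMP response element. None of these motifs contains another. The sequences below are shown because these genes fell or rose about 2-fold or more between C1 and C2 and have a window. Bmpr1b, whose 3 windows lie at starts inside its gene, is left out. The Amhr2 window also lies at a start inside its gene, which begins at base 102445002, so its stretch is not upstream of the whole gene. Capitals mark AAGGTCA in Amhr2, GGCGCC in Bmpr2, and GGCGCC and CAGCTG in Id2, and Id3 holds none of the 6.
Amhr2 (chr15:102445125-102445154, plus strand, 30 bases around the match only): caccttcttccAAGGTCAgtaggggtagag
Bmpr2 (chr1:59764029-59764278, plus strand): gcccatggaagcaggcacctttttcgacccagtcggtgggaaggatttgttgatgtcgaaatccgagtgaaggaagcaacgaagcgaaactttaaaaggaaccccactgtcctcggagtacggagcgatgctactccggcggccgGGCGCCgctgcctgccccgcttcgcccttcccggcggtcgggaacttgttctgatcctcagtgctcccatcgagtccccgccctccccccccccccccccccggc
Id2 (chr12:25096093-25096342, minus strand): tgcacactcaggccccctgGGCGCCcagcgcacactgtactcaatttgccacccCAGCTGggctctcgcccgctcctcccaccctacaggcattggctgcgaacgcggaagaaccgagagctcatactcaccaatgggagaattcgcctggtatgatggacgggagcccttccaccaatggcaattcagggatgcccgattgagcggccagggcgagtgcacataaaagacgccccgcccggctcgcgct
Id3 (chr4:136143572-136143821, plus strand): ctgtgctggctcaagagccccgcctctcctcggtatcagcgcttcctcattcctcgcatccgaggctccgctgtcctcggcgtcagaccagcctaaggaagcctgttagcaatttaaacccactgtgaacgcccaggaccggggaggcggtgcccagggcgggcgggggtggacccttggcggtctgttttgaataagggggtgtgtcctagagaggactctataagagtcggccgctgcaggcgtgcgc

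Among the 32851 windows of all genes, AAGGTCA was in 4.08%, AGATAA in 9.99%, GGCGCC in 9.59%, CACGTG in 6.02%, CAGCTG in 13.0% and TGACGTCA in 1.55%. The members had 12 windows, some of them overlapping starts of 1 gene. GGCGCC was in 4 of these (of Bmpr1a, Bmpr2, Id2 and Smad5), CAGCTG in 3 (of Amhr2, Bmpr1b and Id2), AAGGTCA in 1 and AGATAA in 1, of Smad5. A match is a run of letters and was not tested as a binding site.

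Values are given on the log2 scale, as the signal of a probe over the valid-probe median of its array, and a change is a difference of stage means. A probe was called at a limma adjusted p under 0.01, over all valid probes. From C1 to C2, 7 of the 11 member probes were called, against 47.6% of all valid probes. They belonged to 6 genes. Amh, Amhr2, Bmpr1b (both probes), Bmpr2 and Id3 fell, so that 6 probes were lower (22.2% of all valid probes were called lower), and Id2 rose (25.4% were called higher). Of the called probes, 6 changed at least 2-fold, against 21.3% of all valid probes. From NC1 to C1, 2 member probes were called, against 2.52% of all valid probes, and both were higher (1.75% were called higher): Id2 and Smad1 probe a. Between NC1 and C2, 8 member probes were called, against 51.5% of all valid probes, and by the moderated F-test over the 3 stages 8 were called, against 51.5%. The comparisons share arrays: C1 against NC1 and C2 against C1 both use the C1 arrays.

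**Figure D1:**
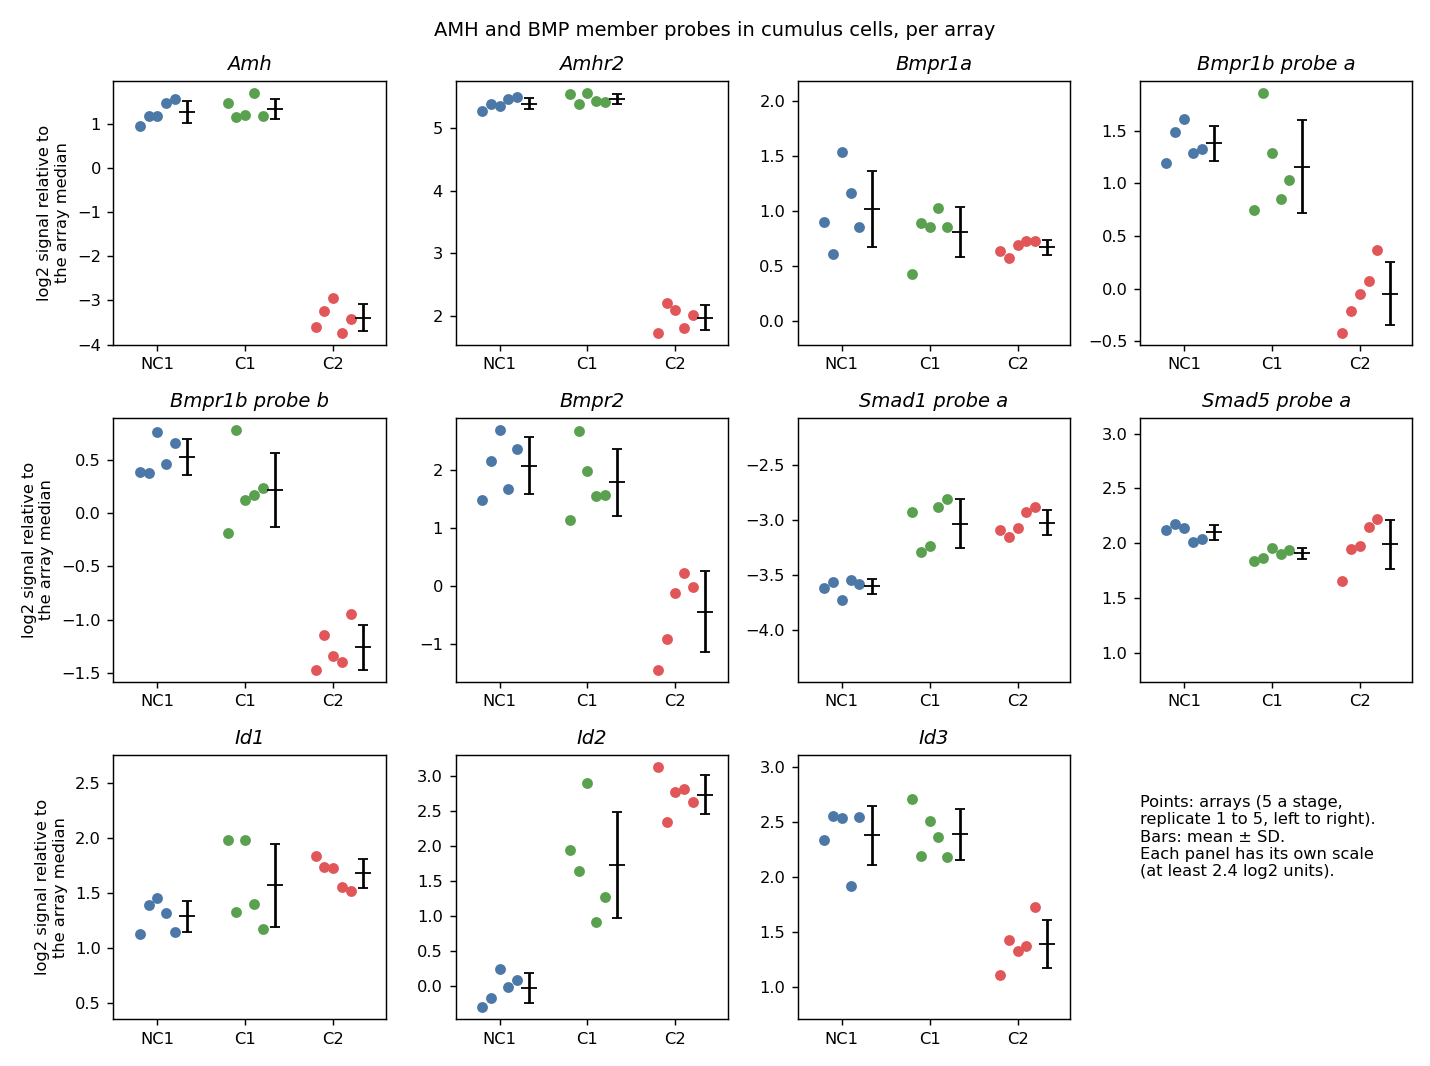
Log2 signal relative to the array median of the 11 valid member probes (vertical axes, 1 scale a panel) in the 5 arrays of NC1, C1 and C2, with the mean ± SD. Amh and Amhr2 lie far lower at C2 than in any array of the other stages, and Id2 climbs from NC1 to C2. Arrays of C1 and C2 overlap for Bmpr1a, Smad1, Smad5, Id1 and Id2.

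The median change of the 11 member probes from C1 to C2 was -1.0, beside 0.02 over all valid probes, and the median size of the change was 1.01 beside 0.47. From NC1 to C1 the median change was 0.01, beside -0.03 over all valid probes, and the median size 0.23 beside 0.14. C1 and C2 arrays did not overlap for 6 member probes, while this held for 43.9% of all valid probes. These arrays are of bulk cells, so fewer cells of a type and less RNA per cell cannot be told apart.

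The ligand Amh was measured at 0.94, 1.17, 1.16, 1.47 and 1.55 in the 5 NC1 arrays, at 1.46, 1.14, 1.20, 1.69 and 1.17 in the C1 arrays, and at -3.61, -3.25, -2.95, -3.73 and -3.41 in the C2 arrays. NC1 and C1 arrays overlapped, and all C2 arrays were lower than any of them. Amh fell by 4.72 ± 0.16 (SE, n = 5 arrays a stage) from C1 to C2, which is 26.4-fold (limma adjusted p = 2.11e-12). With the background corrected by normexp, its change was smaller, -3.91 (adjusted p = 7.3e-13). Its change from NC1 to C1 was 0.07 with a 95% interval from -0.27 to 0.41 (adjusted p = 0.884). Amh was still well above background in all 5 C2 arrays.

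Its receptor Amhr2 was at 5.28, 5.38, 5.35, 5.46 and 5.50 at NC1, at 5.55, 5.38, 5.56, 5.44 and 5.42 at C1, and at 1.73, 2.21, 2.09, 1.80 and 2.02 at C2. The prophase I stages overlapped and C2 stood apart from both. Amhr2 fell by 3.50 ± 0.10 from C1 to C2, or 11.3-fold (adjusted p = 4.32e-13), and its change from NC1 to C1 was 0.08, with an interval from -0.14 to 0.29 (adjusted p = 0.789). Ligand and receptor thus both fell at C2. Within arrays, the log2 ratio of the Amh signal to the Amhr2 signal changed by -1.22 from C1 to C2 (exact permutation test, two-sided, p = 0.00794, the smallest that 5 against 5 arrays allow, adjusted p = 0.0159), so the Amh signal fell further. With normexp the ratio changed by -0.41, or 1.33-fold, and the arrays overlapped (exact permutation p = 0.0159, adjusted p = 0.0283). The same ratio moved by 0.00 from NC1 to C1 (exact permutation p = 0.984). Such ratios were compared for 8 pairs, Amh with its receptor and all pairs of members of 1 role, in 2 comparisons, and adjusted over these 16 tests. They were read at an adjusted p of 0.05, and none was under 0.01. The pairs were chosen after the values had been seen.

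The other type II receptor, Bmpr2, was at 1.49, 2.16, 2.69, 1.67 and 2.37 at NC1, at 1.14, 2.68, 1.99, 1.55 and 1.58 at C1, and at -1.44, -0.91, -0.11, 0.23 and -0.01 at C2. It varied more between arrays than the AMH receptor did, with SDs of 0.49, 0.58 and 0.70 at NC1, C1 and C2, but every C2 array was below every other array. Bmpr2 fell by 2.23 ± 0.33 from C1 to C2, or 4.70-fold (adjusted p = 2.37e-05), and its change from NC1 to C1 was -0.29, with an interval from -0.99 to 0.42. The ratio of Amhr2 to Bmpr2 changed by -1.27 from C1 to C2, with arrays that overlapped, and did not pass 0.05 (exact permutation p = 0.0317, adjusted p = 0.0507), while with normexp it changed by -1.43 and passed (adjusted p = 0.0381).

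The 2 type I receptors differed. Bmpr1b fell on both of its probes. Probe a was at 1.19, 1.49, 1.61, 1.29 and 1.33 at NC1, at 0.75, 1.86, 1.29, 0.85 and 1.03 at C1, and at -0.42, -0.21, -0.05, 0.07 and 0.37 at C2. Probe b was at 0.39, 0.38, 0.76, 0.46 and 0.66 at NC1, at -0.19, 0.78, 0.12, 0.17 and 0.24 at C1, and at -1.47, -1.14, -1.34, -1.40 and -0.95 at C2. On each probe the C2 arrays lay below all others and NC1 and C1 overlapped. The changes from C1 to C2 were -1.21 ± 0.19 on probe a (adjusted p = 4.14e-05) and -1.49 ± 0.16 on probe b (adjusted p = 4.90e-07), 2.31-fold and 2.80-fold.

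Bmpr1a, in contrast, was at 0.90, 0.61, 1.54, 1.17 and 0.86 at NC1, at 0.43, 0.89, 0.86, 1.03 and 0.86 at C1, and at 0.64, 0.57, 0.69, 0.73 and 0.73 at C2. The 3 stages overlapped. Its change from C1 to C2 was -0.14, with an interval from -0.46 to 0.18 (adjusted p = 0.443), and from NC1 to C1 it was -0.20, from -0.52 to 0.12 (adjusted p = 0.573). The difference between the type I receptors was itself tested: the ratio of Bmpr1b to Bmpr1a changed by -1.06 on probe a and by -1.35 on probe b from C1 to C2 (exact permutation p = 0.00794 for each, adjusted p = 0.0159), 2.09-fold and 2.54-fold. It changed by -0.02 and -0.10 from NC1 to C1 (exact permutation p = 0.937 and 0.595).

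**Figure D2:**
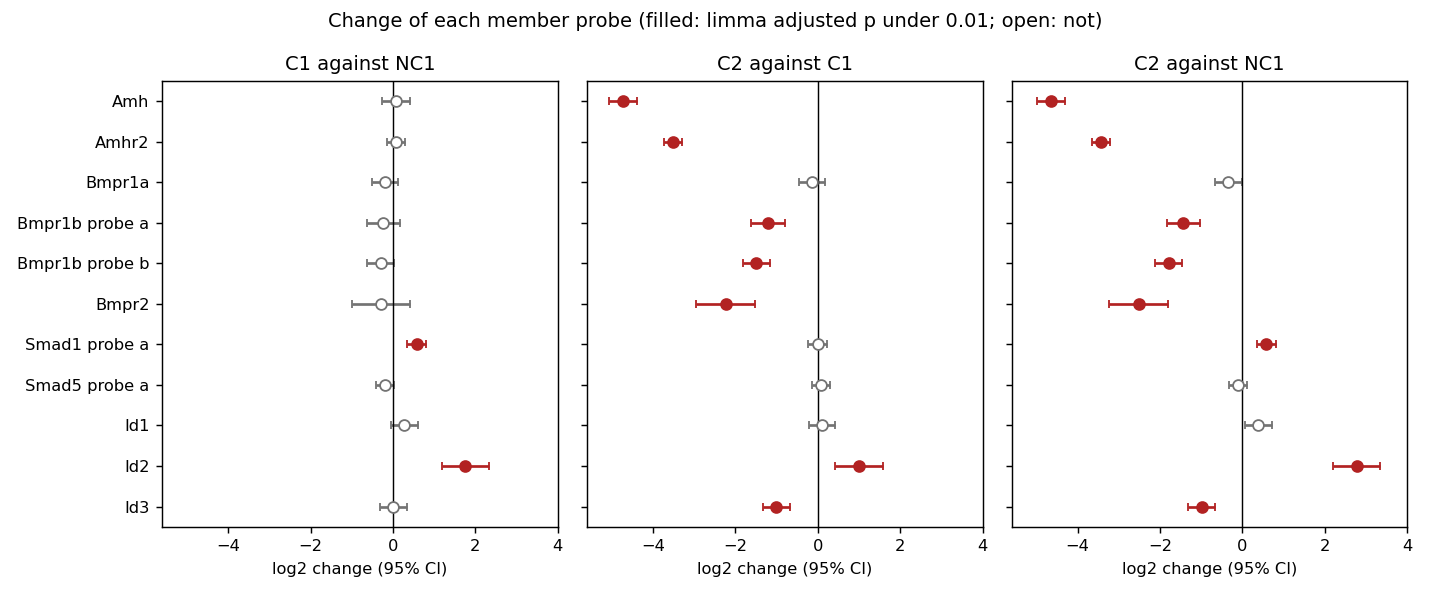
Log2 change of each valid member probe (points, horizontal axes) with its 95% interval for the 3 comparisons, filled where the limma adjusted p was under 0.01. From NC1 to C1 only Smad1 probe a (0.58) and Id2 (1.76) were called, and at C2 Amh had the lowest change of the 11 probes (-4.72 against C1).

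Of the transducers, Smad1 rose from NC1 to C1, and neither was called from C1 to C2. Smad1 probe a was at -3.62, -3.56, -3.73, -3.54 and -3.58 at NC1, at -2.92, -3.29, -3.23, -2.88 and -2.81 at C1, and at -3.09, -3.15, -3.07, -2.92 and -2.88 at C2. All NC1 arrays were below all others, and C1 and C2 overlapped. The change from NC1 to C1 was 0.58 ± 0.11, or 1.49-fold (adjusted p = 0.00333), and the change from C1 to C2 was 0.00, with an interval from -0.23 to 0.23 (adjusted p = 0.987). Probe b of Smad1 was well above background in 2, 3 and 4 of the 5 arrays at NC1, C1 and C2 and was not tested. Its values ranged from -4.80 to -4.37 at NC1, from -4.77 to -3.56 at C1 and from -4.23 to -3.79 at C2.

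Smad5 probe a was at 2.12, 2.18, 2.14, 2.01 and 2.04 at NC1, at 1.84, 1.87, 1.96, 1.90 and 1.94 at C1, and at 1.66, 1.95, 1.98, 2.15 and 2.22 at C2. C1 arrays were all below NC1 arrays, but the change of -0.19, with an interval from -0.41 to 0.02, did not pass the test (adjusted p = 0.371), and the change from C1 to C2 was 0.09, from -0.13 to 0.30 (adjusted p = 0.482). Smad5 probe b was above background in 5, 3 and 4 arrays and was not tested. The ratio of Smad1 to Smad5, probe a of each, rose by 0.77 from NC1 to C1 (exact permutation p = 0.00794, adjusted p = 0.0159) and changed by -0.09 from C1 to C2 (exact permutation p = 0.524). The Smad1 call from NC1 to C1 was lost under 11 of 27 alternatives, among them with the slide as a block (0.57, adjusted p = 0.0153), with the background corrected by normexp (0.37, adjusted p = 0.0311), and without NC1 replicate 3 (0.55), C1 replicate 1 (0.55) or C1 replicate 5 (0.52). Over all of them its change lay between 0.37 and 0.71 and its adjusted p between 0.00104 and 0.409.

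The ID genes, targets of these SMADs, went separate ways. Id2 was at -0.30, -0.17, 0.24, -0.02 and 0.09 at NC1, at 1.94, 1.64, 2.90, 0.91 and 1.27 at C1, and at 3.13, 2.35, 2.77, 2.82 and 2.64 at C2. All C1 arrays were above all NC1 arrays, while C1 overlapped C2 through C1 replicate 3. Id2 rose by 1.76 ± 0.27 from NC1 to C1, or 3.39-fold (adjusted p = 0.000677), and again, by 1.01 ± 0.27, between C1 and C2, or 2.01-fold (adjusted p = 0.00452). C1 had the widest spread of the 3 stages for this gene (SD 0.76, beside 0.21 at NC1 and 0.28 at C2). The second rise was lost under 9 of 27 alternatives, among them without C1 replicate 2 (0.98), 4 (0.80) or 5 (0.89) and without C2 replicate 1 (0.91) or 4 (0.99), and over all of them it lay between 0.80 and 1.32, with adjusted p from 2.71e-05 to 0.0166. Against NC1, C2 was higher by 2.77 (6.82-fold, adjusted p = 1.75e-07).

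Id3 was at 2.34, 2.56, 2.54, 1.92 and 2.55 at NC1, at 2.71, 2.19, 2.51, 2.37 and 2.18 at C1, and at 1.11, 1.43, 1.33, 1.37 and 1.73 at C2. NC1 and C1 overlapped and C2 was below both. Id3 fell by 1.00 ± 0.15 from C1 to C2, or 2.00-fold (adjusted p = 2.37e-05), and its change from NC1 to C1 was 0.01, with an interval from -0.31 to 0.33. Id1 was at 1.13, 1.39, 1.46, 1.32 and 1.15 at NC1, at 1.98, 1.33, 1.98, 1.40 and 1.17 at C1, and at 1.84, 1.74, 1.73, 1.56 and 1.52 at C2. For Id1 the C1 arrays overlapped both other stages, while every C2 array was above every NC1 array. No change of Id1 passed the test: it was 0.28 from NC1 to C1 (adjusted p = 0.378), 0.10 from C1 to C2, with an interval from -0.22 to 0.43 (adjusted p = 0.584), and 0.39 from NC1 to C2 (adjusted p = 0.0366).

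Differences between the ID genes were tested within arrays. The ratio of Id2 to Id3 rose by 1.75 from NC1 to C1 and by a further 2.01 from C1 to C2, or 4.02-fold (exact permutation p = 0.00794 for each, adjusted p = 0.0159). The ratio of Id2 to Id1 rose by 1.48 and by 0.90 (exact permutation p = 0.00794 and 0.0159, adjusted p = 0.0159 and 0.0283), the latter with arrays that overlapped. The ratio of Id3 to Id1 changed by -1.10 from C1 to C2 (exact permutation p = 0.00794, adjusted p = 0.0159). A ratio within an array shows unequal change and does not say which of the genes moved.

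The 15 arrays lay on 4 slides, each with all 3 stages, so the changes could also be taken within slides. Amh was lower at C2 than at C1 on 4 of 4 slides, by -5.17 to -4.12, and Amhr2 by -3.83 to -3.33. Bmpr2 was lower on 4 of 4 slides, by -3.42 to -1.69, Bmpr1b probe a by -1.71 to -0.92 and probe b by -1.59 to -1.25, and Id3 by -1.40 to -0.73. Id2 was higher at C1 than at NC1 on 4 of 4 slides, by 0.67 to 2.86, and higher at C2 than at C1 on 4 of 4, by 0.23 to 1.67. Smad1 probe a was higher at C1 than at NC1 on 4 of 4, by 0.32 to 0.84.

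The profiles closest to those of the members were found by the root mean square difference over the 15 arrays, with each probe centred on its own mean. Closest to Amh were Cyp2s1 (0.361 log2 units), Chst8 (0.363) and Large2 (0.369), and closest to Amhr2 were Sema3g (0.167), Pcdh18 (0.197) and Tmem25 (0.204). Lysmd3 (0.121), Dsel (0.172) and Mpped2 (0.177) were closest to Bmpr1b probe a, and Pxdn (0.160), Atp7a (0.161) and Nnt (0.171) to probe b. No gene was in the first 3 of both probes. Tram2 (0.275), Cc2d2a (0.290) and Map3k5 (0.318) were closest to Bmpr2. For Id2 the closest were Tinagl1 (0.381), Edn2 (0.406) and Hao2 (0.413), which were higher at C1 than at NC1 by 1.48, 1.77 and 1.55 and at C2 than at C1 by 1.25, 1.08 and 0.65.

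The other genes of the pathway were read from lists of 82 genes, 1 probe a gene, of which 57 were valid. From C1 to C2, 14 of these 57 rose, 19 fell and 24 were not called, with a median change of 0.00. Of all valid probes, 47.6% were called. These counts and this median leave out genes too dim at any stage to be valid. For Atoh8 the mean was -2.6 at C1 and -4.82 at C2, for Chrdl1 -2.57 and -4.91, and for Eng -2.55 and -4.71. Acvr1c (-4.7 and -2.18) and Hes1 (-4.32 and -2.97) went the other way. None of these changes was tested. Beside 2.52% of all valid probes, 2 of the 57 genes were called from NC1 to C1. Of the 84 changes of 28 pathway genes that were refitted under the alternatives, 12 did not keep their side of the threshold under all. Among 16 ligands, 7 were valid, 1 rose and 2 fell. Bmp2 ranged from 0.38 to 1.95 at C1 and from -4.56 to -3.87 at C2, and fell by 5.48 ± 0.24 (adjusted p = 1.97e-11), or by 4.29 with normexp. Bmp3 fell by 2.53, and Bmp6 rose by 2.06 ± 0.14 (adjusted p = 2.66e-09), so the BMP ligands did not move together. Bmp7 was above background in all 5 arrays of NC1 and of C1 and in 3 at C2, and Gdf7 in 5, 5 and 1.

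The oocyte's ligands Gdf9 and Bmp15 were also seen. Gdf9 changed by -1.95 ± 0.80 from C1 to C2 (adjusted p = 0.047), which was not called, and Bmp15 was above background in 5, 5 and 3 arrays. The C2 arrays spread widely for Gdf9, from -1.69 to 3.06 (SD 2.23, beside 0.65 at C1). The summed signal of 10 oocyte markers ranged from 12.6 to 50.4 at NC1, from 12.9 to 40.3 at C1 and from 0.699 to 17.1 at C2, in multiples of the array median. Of their 4 valid markers, Npm2 was called lower at C2 than at C1 (-2.89, adjusted p = 5.51e-07) and 3 were not called, beside 22.2% of all valid probes called lower. Zp2 was above background in all arrays of NC1 and C1 and in none of C2. The part of oocyte RNA in these results was not tested.

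Of 10 other receptors and co-receptors, 8 were valid, 3 rose and 4 fell from C1 to C2. Of all valid probes, 25.4% were called higher and 22.2% lower in this comparison. The type I receptors Acvr1 (0.96, adjusted p = 4.32e-05) and Acvrl1 (1.27, adjusted p = 2.26e-06) and the co-receptor Rgmb (1.18) rose, where Bmpr1b fell and Bmpr1a was not called. The type II receptor Acvr2a (-0.87), Tgfbr3 (-1.38) and Rgma (-0.99) fell, as Bmpr2 did, but the call of Acvr2a was lost under 3 of 27 alternatives (-0.51 at the least, adjusted p up to 0.0286) and that of Acvr1 with spike-in scaling (adjusted p = 0.0119), and Acvr2b, also a type II receptor, was not called (0.24, adjusted p = 0.0709). Among 13 other SMADs and intracellular regulators, 12 were valid, 5 rose and 2 fell. The receptor SMAD Smad9 (-0.81) and the inhibitory Smad6 (-0.99, adjusted p = 0.00019), itself a known BMP target, fell, while the repressor Skil rose by 2.37 ± 0.18 (adjusted p = 9.26e-09), the ubiquitin ligase Smurf1 by 1.44 and the repressor Zeb2 by 1.03. The call of Smad9 was lost under 4 of 26 alternatives (-0.42 at the least, adjusted p up to 0.0276), that of Smad6 under 2 of 27 (-0.68 at the least, adjusted p up to 0.0194) and that of Zeb2 with spike-in scaling (adjusted p = 0.0118).

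**Figure D3:**
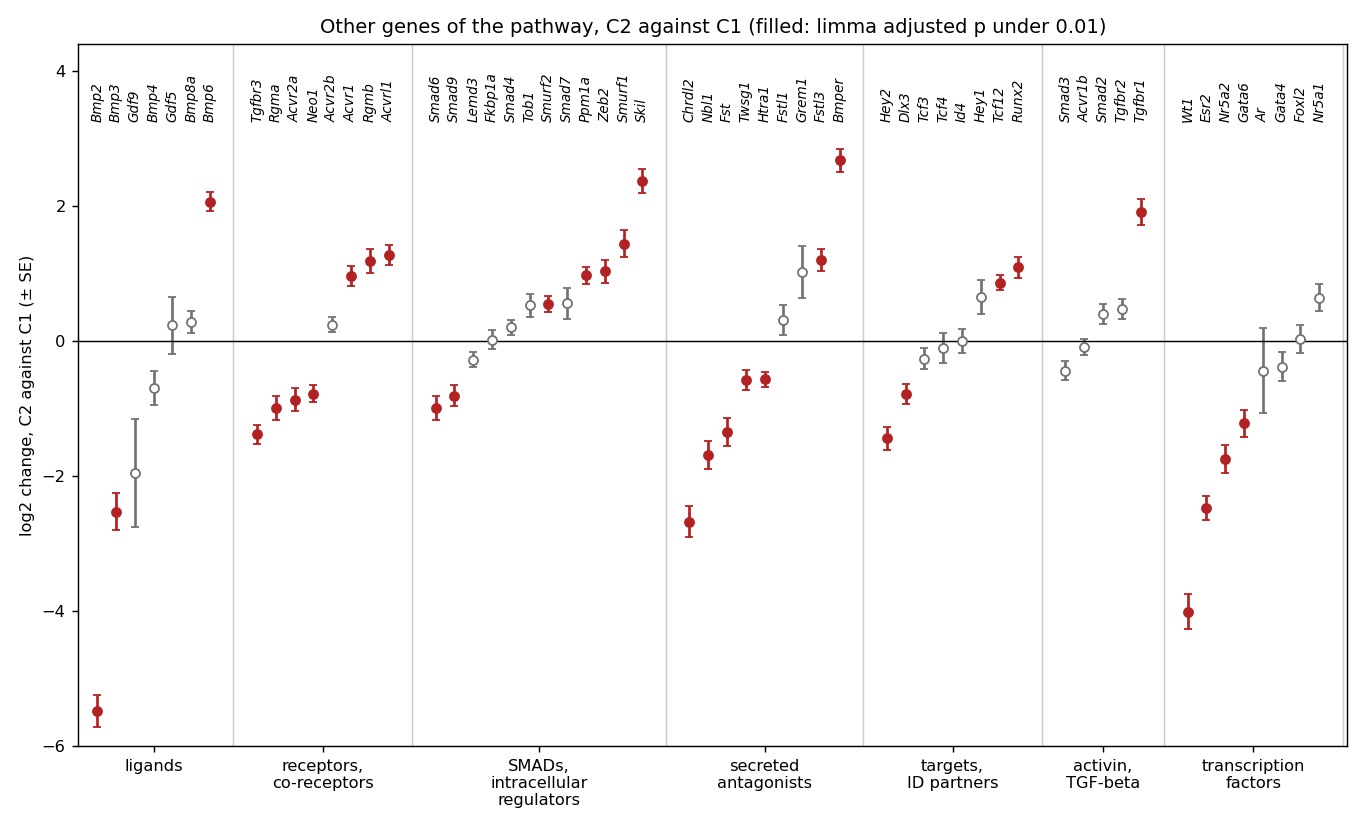
Log2 change from C1 to C2 (vertical axis, ± SE) of the 57 valid genes of 7 pathway lists, 1 probe a gene, filled where the limma adjusted p was under 0.01. Each of the 5 lists from ligands to targets and ID partners holds genes that rose and genes that fell, with Bmp2 lowest (-5.48) and Bmper highest (2.68), and 4 transcription factors known to act on Amh fell.

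Of 14 secreted antagonists, which bind BMPs or activins outside the cell, 9 were valid, 2 rose and 5 fell from C1 to C2. Among all valid probes, 25.4% were called higher and 22.2% lower. Chrdl2 (-2.68 ± 0.23, adjusted p = 5.33e-08, and -1.99 with normexp), Nbl1 (-1.69) and Fst (-1.35) fell, whereas Bmper rose by 2.68 ± 0.17 (adjusted p = 1.09e-09) and Fstl3 by 1.20. Chrdl2 also fell from NC1 to C1, by 1.22 (adjusted p = 0.00398), a call lost under 8 of 26 alternatives. Among them were those without NC1 replicate 3 (-1.11) or 4 (-1.19) and without C1 replicate 1 (-1.23), 2 (-1.15) or 5 (-1.20). Over all alternatives the adjusted p was from 0.00115 to 0.0201. Grem1, a cumulus gene of the ovulatory response, was not called from C1 to C2 (1.02, adjusted p = 0.0353), though these arrays did not overlap. Against NC1 it was called higher at C2 (1.87, adjusted p = 0.000593). Among 12 further targets and ID partners, 8 were valid, 2 rose and 2 fell. Hey2 (-1.44) and Dlx3 (-0.79) fell, and Tcf12 (0.86), which encodes a partner of ID proteins, rose. The call of Dlx3 was lost with the median over all gene probes and in the authors' table (-0.48 at the least, adjusted p up to 0.0308), and that of Tcf12 with spike-in scaling (adjusted p = 0.0241). Runx2, above background in 4 of 5 NC1 arrays and in all others, rose at both steps, with changes of 1.60 between NC1 and C1 (adjusted p = 1.2e-05) and 1.09 between C1 and C2 (adjusted p = 2.57e-05), and the first was 0.91 with normexp (adjusted p = 0.000148). The partners Tcf3 and Tcf4 were not called (-0.26 and -0.10). In the activin and TGF-beta branch, 5 of 6 genes were valid and 1 was called from C1 to C2, Tgfbr1, which rose by 1.91.

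Of 11 transcription factors known to act on Amh, 8 were valid, and 4 fell from C1 to C2, where 22.2% of all valid probes were called lower: Wt1 (-4.01 ± 0.26, adjusted p = 1.87e-09), Esr2 (-2.47), Nr5a2 (-1.75) and Gata6 (-1.22). None rose at the threshold. Foxl2 changed by 0.03 (adjusted p = 0.908), Gata4 by -0.38 (adjusted p = 0.143) and Nr5a1 by 0.64 (adjusted p = 0.0133). Nr0b1 was above background in all arrays of NC1 and C1 and in none of C2, at least 17.3-fold lower at C2 than at C1. Sox8 and Sox9 were above background in no array.

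Markers of the cumulus cells themselves and of other cells moved too. Of 9 cumulus and granulosa markers, which include Fshr and Inha, 8 were above background in all arrays of NC1, 9 at C1 and 8 at C2, where Kitl was in none. Their summed signal fell from between 253 and 337 at C1 to between 58.6 and 84.6 at C2. Of their 8 valid markers, 7 were called lower, Foxl2 excepted, beside 22.2% of all valid probes. The summed signal of 9 theca and stroma markers was 14.5 to 60.1 at NC1, 12.5 to 19.2 at C1 and 0.885 to 1.18 at C2, where Lum, Pdgfra and Tcf21 were above background in no array. Red blood cell markers were at 70.4 to 412 at NC1 and 10.2 to 42.3 at C1, beside the rise of Id2 and Smad1. The 8 endothelial markers summed to 1.21 to 1.66 at C1 and 1.04 to 1.77 at C2, but did not move alike. Cdh5 was called higher at C2, with means of -1.95 at C1 and -0.45 at C2 (adjusted p = 0.000125). Kdr, the other valid one, was not called. Cldn5 had means of -1.36 and -5.4 and was above background in 5 and 1 arrays. Emcn had means of -3.56 and -6.11 and was above background in 4 and 0. Neither was valid, so neither was tested. The 5 leukocyte markers found summed to 3.73 to 5.03 and 3.87 to 5.80. Of their 3 valid markers, Cd14 was called higher (1.22, adjusted p = 0.000681) and 2 were not called. The 5 oviduct markers summed to 0.709 to 2.74 and 0.988 to 8.76. Of the 3 valid oviduct markers, Epcam (-1.05) and Tppp3 (-1.01) were lower at C2 and Ovgp1 was not called (2.28, adjusted p = 0.0343). The part of these cells in the changes of the members was not tested. Per array, 18368 to 24496 gene probes were well above background.

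**Figure D4:**
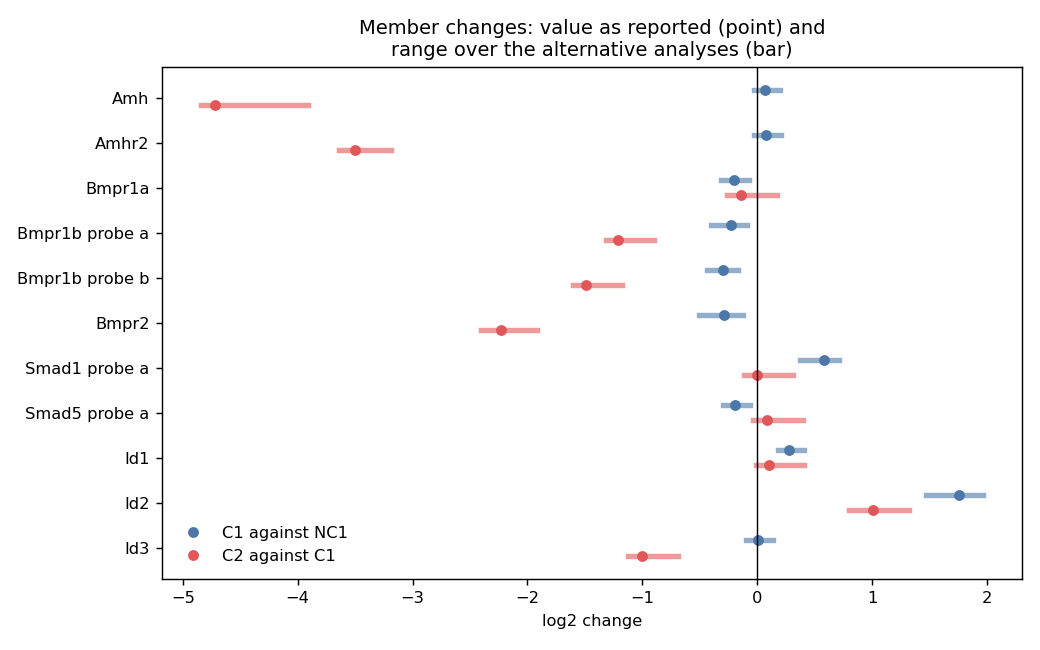
Log2 change of the 11 valid member probes from NC1 to C1 and from C1 to C2 as reported (points) and the range over 27 alternative analyses (bars). The changes of Amh, Amhr2, Bmpr1b, Bmpr2 and Id3 at C2 and of Id2 and Smad1 at C1 lie on 1 side of 0 throughout.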

How the data were processed

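Cumulus cell RNA of 15 pools, 5 for each of 3 stages, was hybridised with 1 dye (Cy3) to Agilent arrays of 44397 spots. The deposited scanner files hold background-subtracted intensity per spot on a linear scale, made by the authors with Feature Extraction (10.5.1.1 per the labels, 10.7.1.1 per the file headers). The authors' table of log2 values for 20855 probes was used for the choice of members and as an alternative. Each of its columns was the log2 intensity plus 1 constant for the array, with an SD of the difference over probes of at most 0.00742.

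Spots of a probe were averaged, without control spots or spots marked as non-uniform or population outliers, log2 was taken, and values were set relative to the valid-probe median of the array. Validity (4 of 5 arrays of each stage, 80%) and the threshold of 0.01 follow the methods of the study. The study scaled by the median of each array, while the median here is that of the valid probes. The median over all gene probes was run as an alternative. No spot was saturated. Stages were compared with limma (3.58.1) in R (4.3.3), in 1 model over the 15 arrays, two-sided, with Benjamini-Hochberg adjustment over 17324 probes. Simulated data with known changes served to check the fit. Probes were named through RefSeq (GRCm38.p6) or the authors' table. For a list gene, the probe with the highest mean stood for the gene. A bound of a fold sets the bright stage's mean against the mean, over the dim stage's arrays, of the lowest signal well above background or the probe's own, whichever is higher. Normexp used median spot and background intensities with an offset of 50.

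Every member probe is described. Of each list, genes called from NC1 to C1, genes above background in all arrays of 1 stage and none of another, and genes among the 3 highest and 3 lowest called changes from C1 to C2 could be named, and some others were named after their values were seen. One gene of the lists is not reported here and is left out of their counts. The members, lists and rule were chosen with earlier results of these data known. Labels do not say that arrays with the same replicate number share animals or days. The p-values measure the spread between pools. The number of arrays limits the precision.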

Additional observations from a re-analysis of the deposited data

Results flagged for a closer look

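In the 117 sets of 5 arrays examined (each member probe and named pathway gene at each stage), 1 value lay apart from the other arrays of its stage by a gap above Dixon's critical value, where chance gives about 1 in 20. Bmpr1a was at 0.43 in C1 replicate 1, and between 0.86 and 1.03 in the other C1 arrays. The change of Bmpr1a was called under none of the 27 alternatives, those without this array included.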

How the results depend on the processing

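Of the 33 changes of member probes, 29 kept their side of the threshold under all 27 alternatives run, and none that was called reversed. The 7 calls from C1 to C2 and the 8 calls over the 3 stages stayed within 1.5 times in number. From NC1 to C1, 2 member probes were called, but 1 with the median over all gene probes, quantile normalization, spike-in scaling, normexp, the authors' table, no filter, the spread from 2 stages, or the slide as a block, or at a minimum of 2-fold, and 1 to 2 when single arrays were left out. The 2 pathway genes called from NC1 to C1 became 1 with spike-in scaling, no filter or the slide as a block, 0 when all 5 arrays of each stage had to be above background, and 1 to 2 when single arrays were left out. Of the 33 pathway genes called from C1 to C2, 21 changed at least 2-fold. The 0 came from the filter itself: Runx2 was above background in 4 NC1 arrays and Chrdl2 in 4 C2 arrays, so neither was fitted. The cause of the other losses was not tested.

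With the median over all gene probes, as with the authors' table, the median change of valid probes from C1 to C2 was 0.33, beside 0.02 as reported. With spike-in scaling the median change from NC1 to C1 was 0.10, beside -0.03 as reported. Replicate numbers were not taken as pairs, since correlations of same-number deviations were not all over 0.1. They were 0.0559 to 0.348 between NC1 and C1, all positive, -0.17 to 0.213 between C1 and C2 and -0.242 to 0.00219 between NC1 and C2. With the replicate number as a block, 2, 7 and 8 member probes were called from NC1 to C1, from C1 to C2 and from NC1 to C2. The second probes of Smad1 and Smad5 lie near background, where the arrays show little.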
